A study of Mus musculus with 40 samples.

Results

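The glutathione peroxidases measured here were 6 genes, Gpx1, Gpx2, Gpx3, Gpx4, Gpx7 and Gpx8, found by gene symbol among the 26132 Ensembl IDs present in at least 1 of the adult and pubertal count tables. All 6 were in both tables, which shared 23180 IDs. Gpx3 was among the reasons for choosing the family, because its level in luminal cells at proestrus was already known to be high. Its luminal values are therefore compared between stages as a description with no test, as are those of the other members at luminal proestrus. The adult comparisons between cell types do include the luminal proestrus libraries, and those of luminal Gpx3 are also given without them. Gpx6 had 1 count in the pubertal table and is left aside, and Gpx5 was not analysed here. The libraries were bulk polyA RNA-seq of mammary glands of untreated wildtype FVB/N female mice. Adult mice were 14 to 16 weeks old and were staged to proestrus, estrus, metestrus or diestrus, and each library pooled RNA of 2 or 3 mice. Pubertal mice were 34 to 36 days old, and each library pooled 4 mice. At each of these 5 time points there were 2 libraries of each of 4 cell types, 40 libraries in all. Luminal, basal and stromal cells were sorted by EpCAM and CD49f after removal of blood and endothelial cells, the stromal (fibroblast) gate by the absence of both markers, whereas the fat (adipocyte) samples were the floating layer after centrifugation and were not sorted. In such bulk samples fewer cells of a type and less RNA per cell cannot be told apart.

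Glutathione peroxidases reduce hydrogen peroxide or lipid hydroperoxides, most of them at the expense of glutathione, the main thiol of the cell. In the mouse, Gpx1 (cytosol and mitochondria), Gpx2 (known best from the gut epithelium), Gpx3 (secreted, the enzyme of blood plasma) and Gpx4 (which reduces phospholipid hydroperoxides in membranes and restrains ferroptosis) carry selenocysteine in the active site. Gpx7 and Gpx8 reside in the endoplasmic reticulum, carry cysteine instead, and pass oxidizing equivalents to protein disulfide isomerases during protein folding. The mammary gland is a tissue in which ducts of luminal and basal (myoepithelial) cells lie in a stroma of fibroblasts and adipocytes, and its epithelium is exposed to ovarian hormones that change through the estrous cycle.

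The active-site codon separates the selenoenzymes from the cysteine enzymes, and is shown here in 27 coding bases of the first transcript of each gene, read 5′ to 3′ on the coding strand from GENCODE M21 (GRCm38, the build of the count tables). Capitals mark the active-site codon, TGA for selenocysteine and TGT or TGC for cysteine.
Gpx1: aatgtcgcgtctctcTGAggcaccacg
Gpx2: aatgtggcgtcactcTGAggaacaact
Gpx3: aacgtagccagctacTGAggtctgaca
Gpx4: aacgtggcctcgcaaTGAggcaaaact
Gpx7: aacgtagctagcgaaTGTggcttcaca
Gpx8: aacgtggctagtgacTGCcgcttcaca

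The Gpx1 window lies at chr9:108339436-108339462 on the + strand, in exon 1 of 2, with the marked codon at position 47 of 201 coding codons. That of Gpx2 lies at chr12:76795247-76795273 on the - strand, in exon 1 of 2, codon 40 of 190. The Gpx3 window is chr11:54907241-54907267 (+), exon 2 of 5, codon 73 of 226, and the Gpx4 window is chr10:80054722-80054748 (+), exon 3 of 7, codon 129 of 253. The Gpx7 window is chr4:108403421-108403447 (-), exon 2 of 3, codon 56 of 186, and the Gpx8 window is chr13:113045652-113045678 (-), exon 2 of 3, codon 79 of 209. In Gpx1, Gpx2, Gpx3 and Gpx4 the marked TGA was the only stop triplet in frame (1 each) and was annotated as selenocysteine, and Gpx7 and Gpx8 had 0. Gpx1 and Gpx2 shared 22 of the 27 bases, as did Gpx7 and Gpx8, and the lowest of the 15 pairs, Gpx2 with Gpx7, shared 12. Gpx2 lies within an intron of Fntb and Gpx8 within Cdc20b, each on the opposite strand and with no exon in common. Whether the counting used strand was not given in the sources used here.

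The libraries held between 8991222 and 22760563 counts in adults and between 11774264 and 19033586 in puberty. Marker genes followed the cell type labels in adults. Krt18 was between 5285 and 7271 CPM (a gene's count scaled to the adjusted library size) in luminal libraries and at most 354 CPM in any other, Krt5 was between 1344 and 2405 CPM in basal libraries, Adipoq between 341 and 1553 CPM in fat libraries, and Col1a1 between 2461 and 9024 CPM in stromal libraries. The fat libraries also held Pecam1, a vessel marker, at 152 to 436 CPM and Ptprc, a leukocyte marker, at 21.3 to 58.0 CPM, and the stromal libraries held Pecam1, whose protein (CD31) was used to gate endothelial cells out, at 299 to 955 CPM. Fat diestrus replicate 2 stood apart: 8 basal markers summed to 4405 CPM and 6 epidermal markers to 1809 CPM, and 7 adipocyte markers summed to 4547 CPM, the lowest of the adult fat libraries. In fat diestrus replicate 1, 8 luminal markers summed to 1375 CPM, above the 138 to 389 CPM of the proestrus, estrus and metestrus fat libraries. Among pubertal libraries, luminal replicate 2 had a summed luminal marker level of 34045 CPM, against 16809 CPM in replicate 1. The pubertal fat libraries were mixed too. Their basal markers summed to 617 and 2585 CPM, and their epidermal markers to 23.6 and 913 CPM. Fibroblast markers there summed to 9186 and 18275 CPM, and adipocyte markers to 4191 and 10092 CPM (lower value first in each pair). Krt14 was 85.7 CPM in fat replicate 1 and 1082 CPM in fat replicate 2.

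Gpx1, Gpx3 and Gpx4 were abundant, Gpx7 and Gpx8 moderate to low, and Gpx2 low. Levels of different genes are compared per kilobase of exon (RPKM), since the exon length ranged from 1048 bases (Gpx8) to 3222 bases (Gpx2). In adult luminal libraries Gpx3 made up a median of 60.1% of the summed RPKM of the 6 genes (range 41.8 to 90.4%, n = 8). In adult basal libraries Gpx3 made up 0.578% (median) and the family consisted mostly of Gpx4, with a median of 53.9% (48.7 to 60.1%), and Gpx1, with 38.9% (29.9 to 41.2%). Gpx3 made up 35.2 to 56.0% in fat and 25.8 to 55.7% in stromal libraries. By median, the next gene was Gpx4 in fat libraries (36.0%) and Gpx1 in stromal libraries. These ranks depended on the length used. Per kilobase of the first transcript, median Gpx4 was above Gpx3 in fat libraries (559.5 and 476.1). In stromal libraries Gpx4 was then above Gpx1 (209.2 and 200.8). With that length Gpx3 still had the highest median in luminal libraries (696.6), and Gpx4 in basal libraries (277.9). The cysteine enzymes had their largest portion in stromal libraries, where Gpx8 reached a median of 10.7% (9.17 to 13.6%) and Gpx7 3.93%. Among adult libraries the summed RPKM of the family was highest in luminal cells at proestrus (3321 and 2528 RPKM), against 753 to 1145 RPKM in the other adult luminal libraries, and it was 945 and 2673 RPKM in pubertal luminal libraries.

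**Figure D1:**
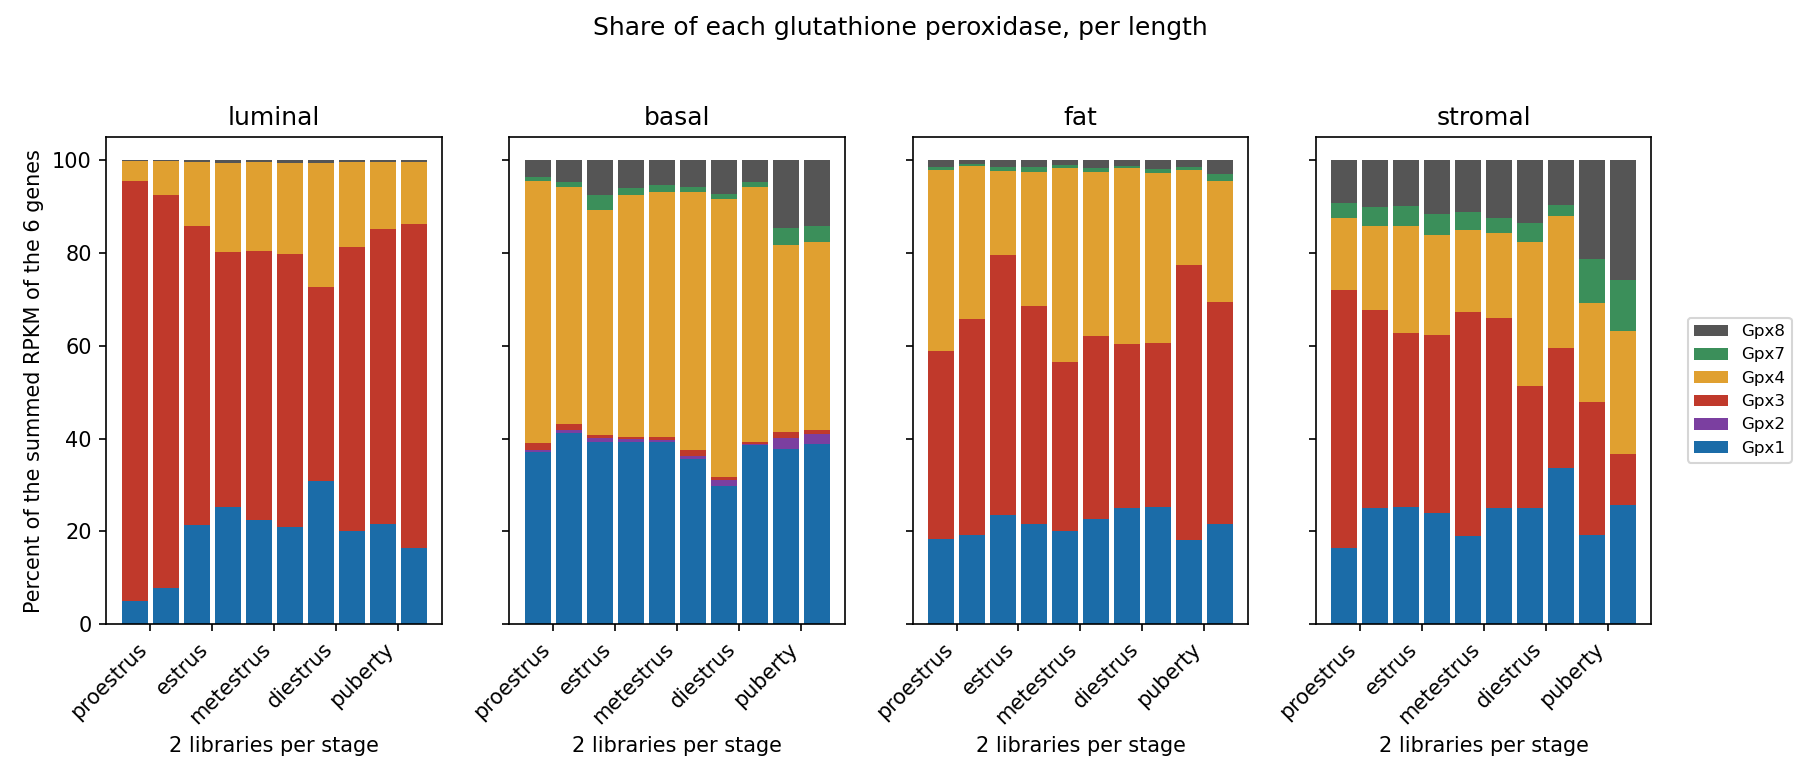
Share of each gene in the summed RPKM of the 6 glutathione peroxidases (percent, stacked bars), 1 bar per library, grouped by cell type and stage. Gpx3 takes 41.8 to 90.4% in adult luminal libraries and a median of 0.578% in adult basal libraries, where Gpx4 (median 53.9%) and Gpx1 (38.9%) make up most of the bar.

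To ask how the cell types differed, the 32 adult libraries were fitted together and each cell type was compared with each other over the 4 stages (edgeR's quasi-likelihood test with Benjamini-Hochberg adjustment over 15077 genes). Of 36 gene and cell type pair comparisons, 32 passed an adjusted p of 0.05, 14 higher and 18 lower in the first-named cell type. The adult cell types differed broadly, so these counts stand close to the background. In luminal minus basal 5 of 6 members passed, 2 higher and 3 lower, where 73.6% of all genes passed, 35.3% higher and 38.3% lower. In luminal minus fat it was 5 of 6, 2 higher and 3 lower (81.2% of all genes, 38.6% higher and 42.6% lower). The higher calls there included Gpx3, whose luminal proestrus level entered the choice of the family. That call was lost without both luminal proestrus libraries. In luminal minus stromal it was 6 of 6, 4 higher and 2 lower (81%, 40.9% higher and 40.2% lower). In basal minus fat it was 5 of 6, 1 higher and 4 lower (84.2%, 39.6% higher and 44.6% lower), and in basal minus stromal 6 of 6, 2 higher and 4 lower (77%, 39.5% higher and 37.5% lower). In fat minus stromal it was 5 of 6, 3 higher and 2 lower (78.4%, 39.2% higher and 39.1% lower).

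Gpx3 was nearly absent from basal cells and abundant in the other 3 cell types. Its lowest, median and highest adult levels were 571, 1110 and 5441 CPM in luminal libraries, 1.63, 2.87 and 8.24 CPM in basal libraries, 344, 759 and 1241 CPM in fat libraries, and 176, 463 and 984 CPM in stromal libraries (n = 8 each). No basal library came within the range of any other cell type. The means of luminal and basal libraries differed 474-fold, with the luminal proestrus libraries, which entered the choice of the family, included. On the log2 scale the luminal minus basal difference was 8.70 ± 0.25 (SE, adjusted p = 7.9e-17, edgeR), and it was 8.19 without both luminal proestrus libraries. Basal minus fat was -7.75 ± 0.24 and basal minus stromal -6.93 ± 0.24, adjusted p = 2.8e-16 and 7.8e-16. Fat exceeded stromal by 0.81 ± 0.18 (adjusted p = 0.000345, edgeR), though the ranges overlapped and within proestrus and metestrus alone the differences were 0.41 and 0.46, adjusted p = 0.332 and 0.279.

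The difference between luminal and fat Gpx3 levels was largest at proestrus. Over all stages luminal minus fat was 0.95 ± 0.18 on the log2 scale (adjusted p = 5.9e-05, edgeR). Without both luminal proestrus libraries it was 0.31, adjusted p = 0.147. Within single stages it was 2.22 at proestrus, 0.14 at estrus, 0.54 at metestrus and 0.90 at diestrus, with adjusted p = 0.746 and 0.189 at estrus and metestrus and 0.0366 at diestrus. The luminal minus stromal difference, 1.76 ± 0.18 (adjusted p = 1.9e-08, edgeR), was 1.18 without both luminal proestrus libraries, adjusted p = 1.2e-05.

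**Figure D2:**
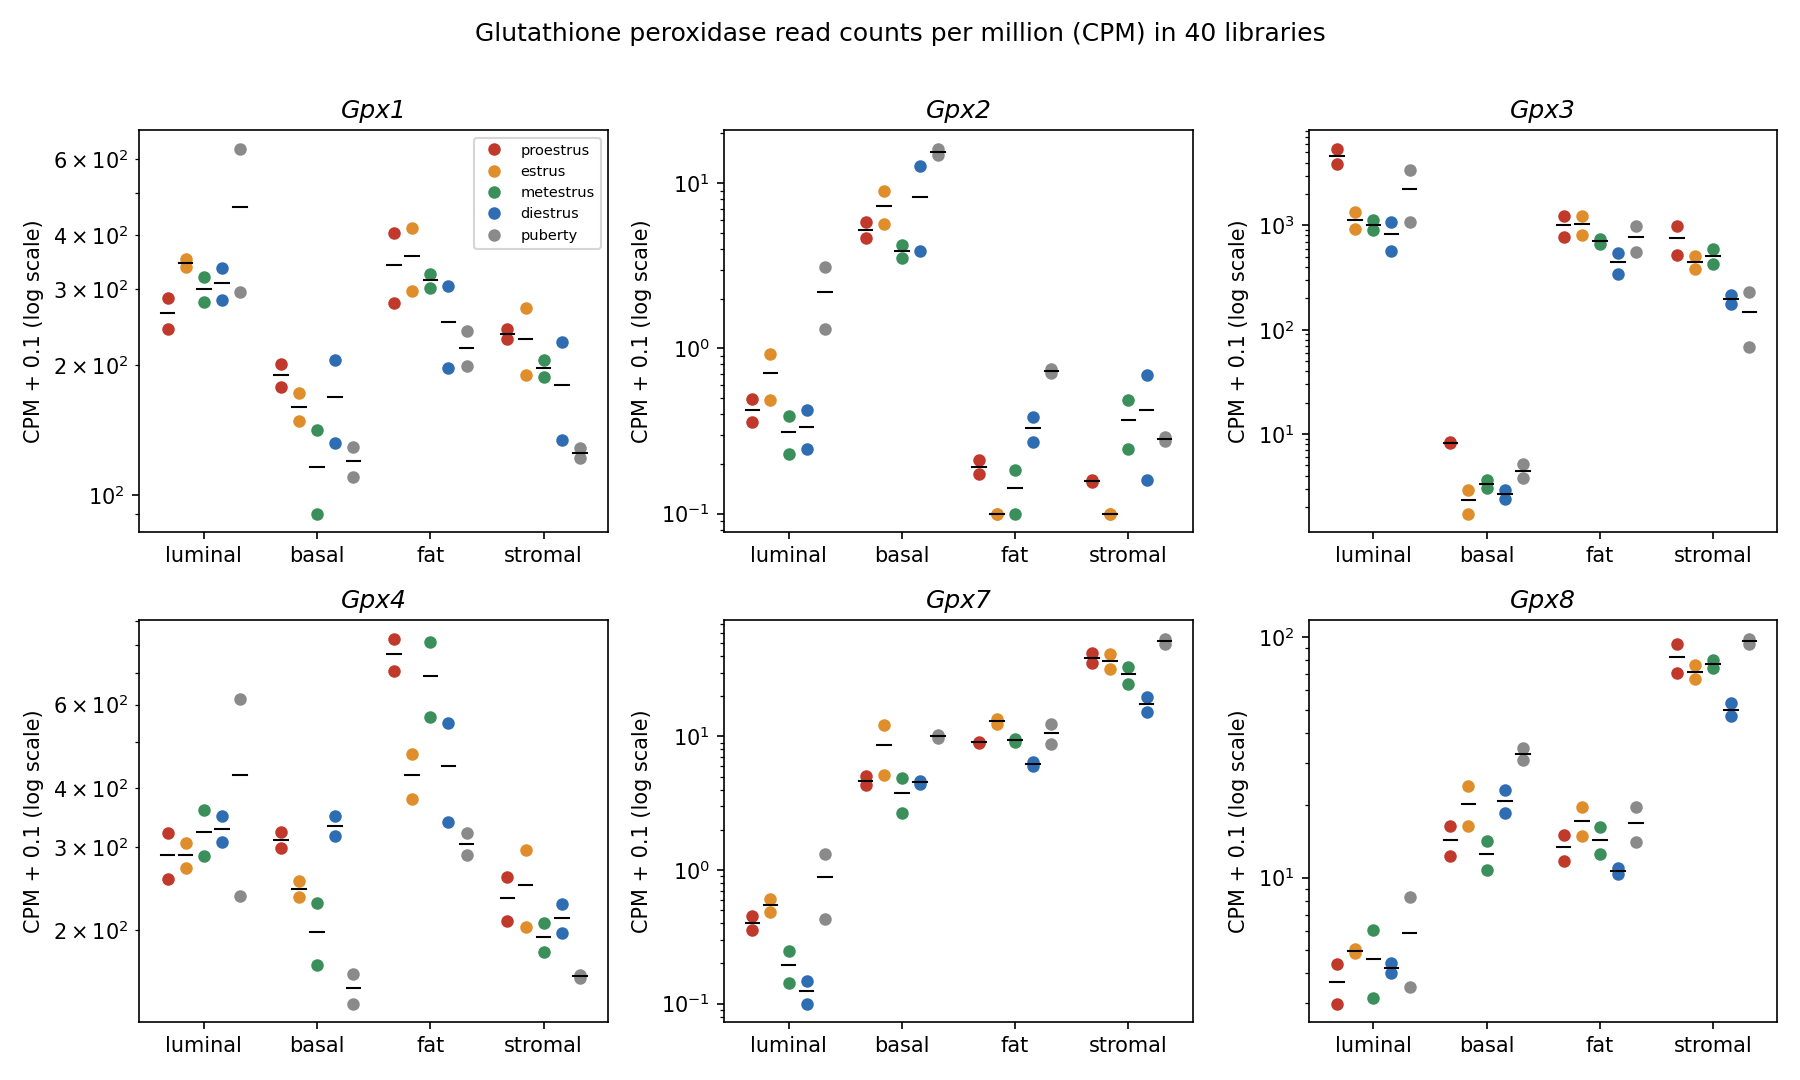
CPM + 0.1 of each gene (log axis) in every library, by cell type, 1 point per library coloured by stage or puberty, with a dash at the mean of each group. Gpx3 spans 571 to 5441 CPM in adult luminal libraries and 1.63 to 8.24 CPM in basal libraries, Gpx2 is highest in basal libraries (3.41 to 12.5 CPM in adults), and Gpx7 and Gpx8 are highest in stromal libraries.

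Gpx1 and Gpx4, both intracellular selenoenzymes, were expressed in all 4 cell types. Their highest and lowest adult cell type means differed 1.99-fold (Gpx1) and 2.61-fold (Gpx4), less than those of the other members. Gpx1 averaged 304 ± 37.4 CPM in luminal, 158 ± 38.3 CPM in basal, 315 ± 69.9 CPM in fat and 210 ± 41.5 CPM in stromal libraries (SD, n = 8 each), with ranges of 242 to 351, 90.3 to 205, 197 to 416 and 134 to 271 CPM. Every luminal library exceeded every basal library, whereas luminal and fat libraries overlapped. Luminal exceeded basal by 0.96 ± 0.14 and stromal by 0.53 ± 0.14 on the log2 scale, basal was below fat by 1.01 ± 0.14, and fat exceeded stromal by 0.58 ± 0.14 (adjusted p between 1.5e-06 and 0.0018, edgeR). Basal minus stromal was -0.43 ± 0.14, adjusted p = 0.00991. Luminal minus fat, at -0.05 ± 0.14, did not pass (adjusted p = 0.773).

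Gpx4 was highest in fat. It averaged 307 ± 35.5 CPM in luminal, 272 ± 60.4 CPM in basal, 581 ± 186 CPM in fat and 222 ± 37.5 CPM in stromal libraries (SD, n = 8 each). The fat range, 339 to 826 CPM, overlapped the upper end of the luminal range (256 to 359 CPM) and of the basal range (169 to 349 CPM) and lay above the stromal range (180 to 295 CPM). Fat exceeded stromal by 1.34 ± 0.12 on the log2 scale, basal was below fat by 1.08 ± 0.12 and luminal below fat by 0.87 ± 0.12 (adjusted p between 2.9e-09 and 1.1e-06, edgeR), and luminal exceeded stromal by 0.47 ± 0.12 (adjusted p = 0.00125). Luminal minus basal, 0.20 ± 0.12, did not pass (adjusted p = 0.131), but did without fat diestrus replicate 2 (0.25, adjusted p = 0.0415) and within metestrus alone (0.70, adjusted p = 0.0175), and was -0.11 within proestrus and -0.019 within diestrus. Basal minus stromal passed narrowly, at 0.27 ± 0.12 and adjusted p = 0.0495, and did not pass in the fit with the pool as a block (adjusted p = 0.0639) or when any 1 of 24 of the 32 adult libraries was left out (log2 difference 0.17 to 0.34, adjusted p 0.0137 to 0.243 over all 32).

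Gpx7 and Gpx8, the endoplasmic reticulum enzymes, were stromal genes that fell to their lowest in luminal cells. Gpx7 had a lowest, median and highest level of 0, 0.202 and 0.503 CPM in luminal, 2.56, 4.65 and 12.2 CPM in basal, 5.93, 9.01 and 13.4 CPM in fat, and 15.1, 32.5 and 41.8 CPM in stromal libraries. The luminal library at 0 counts, diestrus replicate 2, allows up to 0.138 CPM. No luminal library reached the basal range and no other cell type reached the stromal range, while basal and fat overlapped. On the log2 scale luminal minus stromal was -7.65 ± 0.25, basal minus stromal -2.53 ± 0.17, fat minus stromal -1.69 ± 0.16, luminal minus basal -5.12 ± 0.26 and basal minus fat -0.84 ± 0.17, the last with adjusted p = 9.7e-05 (edgeR) and the others below it.

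Gpx8 was at 2.89, 4.30 and 5.94 CPM (lowest, median, highest) in luminal, 10.7, 16.3 and 23.9 CPM in basal, 10.3, 13.6 and 19.5 CPM in fat, and 46.7, 72.7 and 93.6 CPM in stromal libraries. The luminal, the stromal and the pooled basal and fat values formed separate ranges. Luminal minus stromal was -4.02 ± 0.15 on the log2 scale, luminal minus basal -1.96 ± 0.14, basal minus stromal -2.06 ± 0.14 and fat minus stromal -2.34 ± 0.14 (adjusted p at most 9.1e-11, edgeR). Basal minus fat, 0.27 ± 0.13, did not pass (adjusted p = 0.0641), but did without fat estrus replicate 1 (0.33, adjusted p = 0.0417) and within diestrus alone (0.97, adjusted p = 0.00377), and was -0.21 within metestrus. With RLE scaling, which moved the median of all genes in this comparison by -0.13, it was 0.15. Beside the stromal library of the same pool of mice, the fat library held 21.7 to 41.9% of the Gpx7 level, 15.5 to 25.6% of the Gpx8 level and 9.78 to 33.6% of the summed level of 7 fibroblast markers; the part of fibroblast RNA in the fat values was not tested.

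Gpx2 was a basal gene at low level. Its lowest, median and highest levels were 0.130, 0.307 and 0.826 CPM in luminal libraries (66 counts in all 8), 3.41, 5.06 and 12.5 CPM in basal libraries (893 counts), 0, 0.0792 and 0.285 CPM in fat libraries (12 counts), and 0, 0.0590 and 0.592 CPM in stromal libraries (16 counts). Every basal library lay above every library of the other cell types. Luminal minus basal was -4.17 ± 0.35 on the log2 scale (adjusted p = 3.5e-09, edgeR), and the basal mean was 17.6 times the luminal mean and 66.9 times the fat mean. Basal also passed against fat and stromal, and luminal against both, but the fitted sizes of those differences depend on the small count added by the model, since both estrus libraries of fat and of stromal cells had 0 counts (0 counts allow up to 0.184 and 0.223 CPM in fat, 0.481 and 0.187 CPM in stromal). Within proestrus, metestrus and diestrus alone luminal minus fat did not pass (adjusted p up to 0.967, edgeR). Luminal minus stromal did not pass within proestrus, and was below 0 within metestrus and diestrus (-0.21 and -0.37). Fat minus stromal did not pass.

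**Figure D3:**
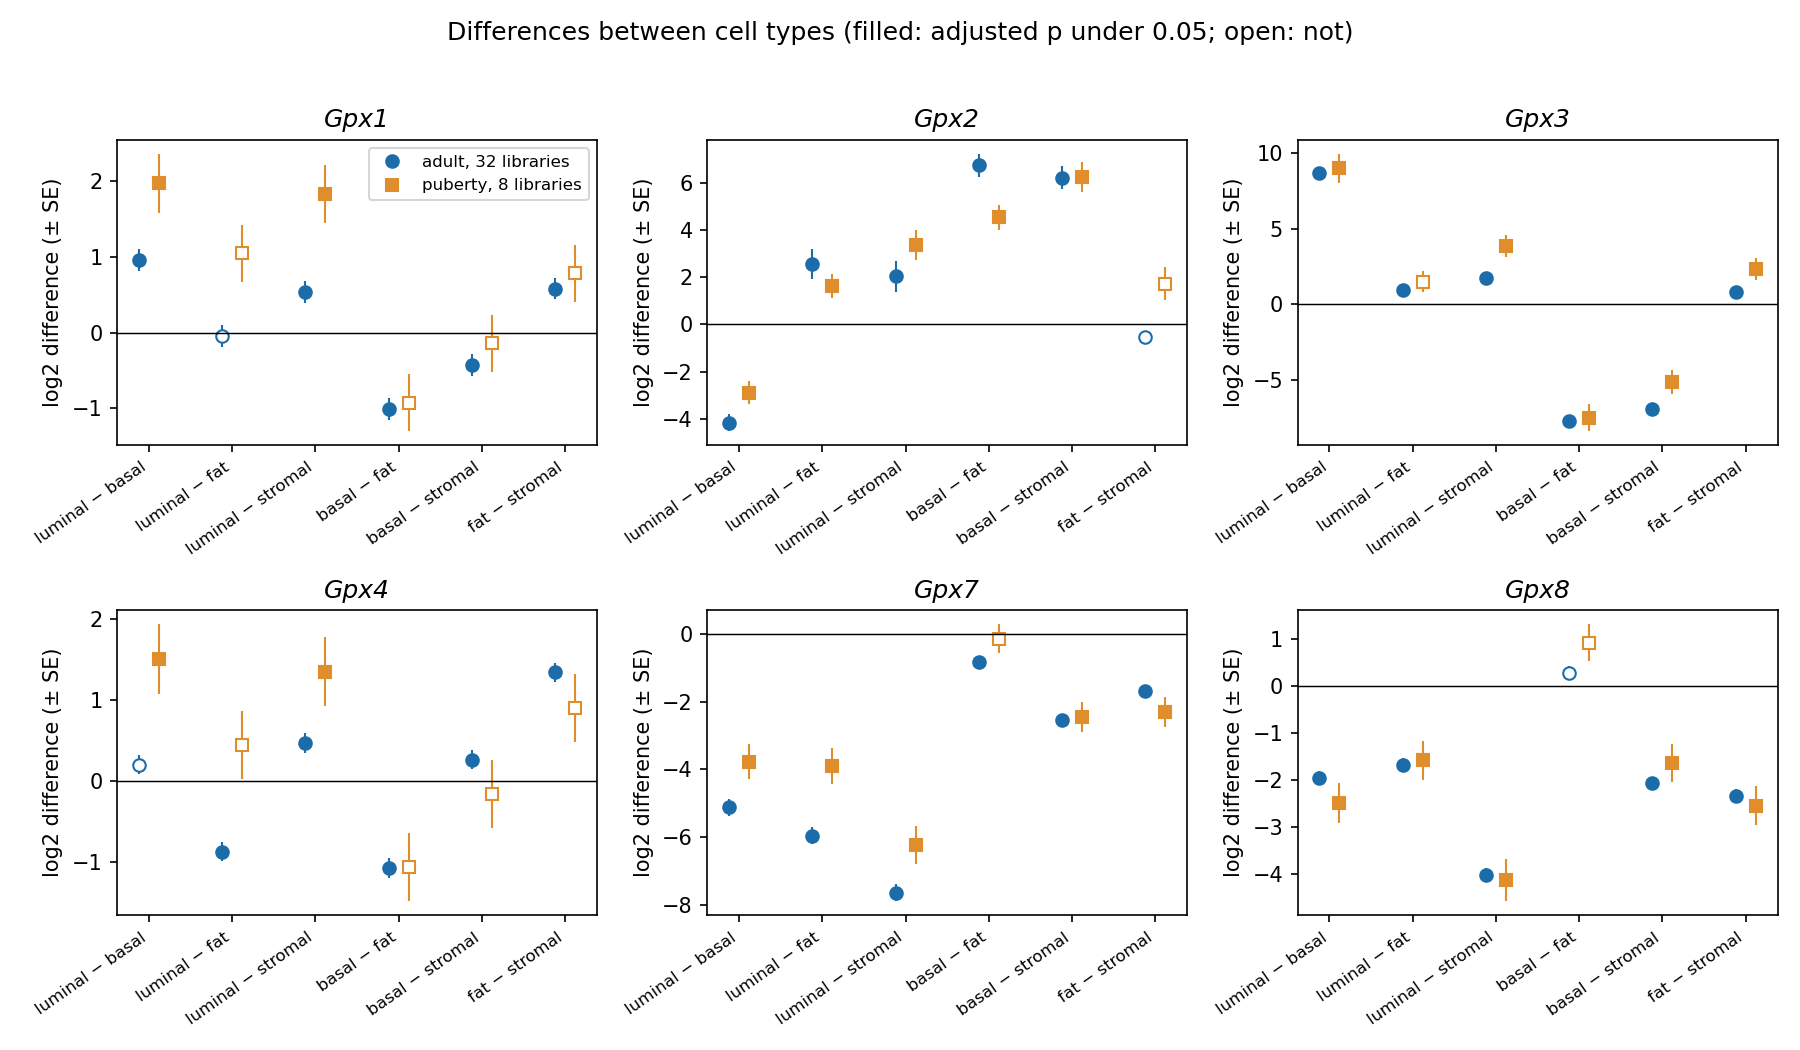
Log2 differences between cell types for each gene, with SE bars, from the fits of 32 adult libraries (circles) and 8 pubertal libraries (squares), filled where the adjusted p is under 0.05; the Gpx2 adult fat minus stromal point has no bar, since its SE could not be estimated. In adults Gpx3 differs by -7.75 in basal minus fat and 8.70 in luminal minus basal, Gpx7 by -7.65 in luminal minus stromal, and Gpx1 and Gpx4 stay between -1.08 and 1.34.

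The same pairs were compared in puberty, in a fit of the 8 pubertal libraries, where 24 of 36 comparisons passed (11 higher, 13 lower). Luminal minus basal passed for 6 of 6 members, 3 higher and 3 lower, where 37.2% of 14263 genes passed, 18.3% higher and 18.9% lower. Luminal minus fat passed for 3 of 6, 1 higher and 2 lower (39.7% of genes, 14.6% higher and 25.1% lower), and luminal minus stromal for 6 of 6, 4 higher and 2 lower (52.2%, 25% higher and 27.1% lower). Basal minus fat passed for 2 of 6, 1 higher and 1 lower (40.9%, 15% higher and 26% lower), and basal minus stromal for 4 of 6, 1 higher and 3 lower (35.8%, 15.2% higher and 20.6% lower). Fat minus stromal passed for 3 of 6, 1 higher and 2 lower (28.4%, 17% higher and 11.3% lower). The pubertal fat libraries carried the marker sums given above, and the part of other cells in their values was not tested. With 2 libraries a cell type the count moved with single libraries, to 18 without basal replicate 1 and to 33 without luminal replicate 1. The order of the cell types by mean level was the same in adults and in puberty for Gpx3, Gpx7 and Gpx8. Pubertal Gpx3 was 1088 and 3383 CPM in luminal, 5.01 and 3.67 CPM in basal, 981 and 555 CPM in fat, and 228 and 68.8 CPM in stromal libraries. Luminal minus basal was 9.02 ± 0.95 on the log2 scale and luminal minus stromal 3.85 ± 0.75, adjusted p = 0.000223 and 0.0031 (edgeR). Luminal minus fat, 1.51 ± 0.68, did not pass (adjusted p = 0.112), but did without luminal replicate 1 (2.13, adjusted p = 0.0444). Fat minus stromal, 2.34 ± 0.70 (adjusted p = 0.0386), did not pass when any 1 of the 4 fat and stromal libraries except fat replicate 2 was left out, nor without either basal library (adjusted p 0.0521 to 0.191).

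Both luminal libraries of puberty differed in most members. Gpx1 was 294 CPM in replicate 1 and 634 CPM in replicate 2, Gpx4 was 236 and 617 CPM, Gpx2 was 1.21 and 2.99 CPM, and Gpx8 was 3.42 and 8.21 CPM, the same direction as the summed luminal markers given above, whose part in these values was not tested. Pubertal luminal comparisons of Gpx4 moved most with replicate 2. Luminal minus basal was 1.51 ± 0.43 (adjusted p = 0.0249, edgeR) and 0.65 without it (adjusted p = 0.072), and luminal minus stromal was 1.35 ± 0.43 (adjusted p = 0.0281) and 0.49 without it (adjusted p = 0.116). Luminal minus fat was 0.45 ± 0.42 (adjusted p = 0.426) and -0.42 without it. The calls of luminal minus basal and luminal minus stromal were also lost without either basal library for luminal minus basal, and without either stromal library or basal replicate 1 for luminal minus stromal. Gpx4 basal minus fat, -1.06 ± 0.43 (adjusted p = 0.0763, edgeR), passed with the replicate number as a block (-1.09, adjusted p = 0.0496), where fat replicate 2 came from other mice than the other libraries of its number, and also with DESeq2 and without either luminal library. Gpx2 exceeded fat in luminal cells by 1.65 ± 0.51 (adjusted p = 0.0322), a call lost when any 1 library except luminal replicate 1 was left out (adjusted p 0.0534 to 0.116). Luminal minus basal differences of Gpx7, at -3.77 ± 0.52, and of Gpx8, at -2.49 ± 0.42, passed with adjusted p = 0.000867 and 0.00228 (edgeR).

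Adult and pubertal libraries were sequenced in separate runs, so age and run cannot be told apart and no test was made between them. Side by side, Gpx2 in basal libraries was 3.41 to 12.5 CPM in adults and 14.7 to 16.1 CPM in puberty, with no overlap. Gpx8 in basal libraries was 10.7 to 23.9 CPM in adults and 30.7 to 34.4 CPM in puberty, again with no overlap. Gpx7 in stromal libraries was 15.1 to 41.8 CPM in adults and 49.3 to 53.8 CPM in puberty. Gpx4 in basal libraries was 169 to 349 CPM in adults and 140 to 162 CPM in puberty. Gpx8 in stromal libraries overlapped, at 46.7 to 93.6 CPM in adults and 93.5 to 98.4 CPM in puberty, while Gpx3 there was 176 to 984 CPM in adults and 68.8 to 228 CPM in puberty. As a share of summed RPKM, stromal Gpx8 was 9.17 to 13.6% in adults and 21.4 to 25.7% in puberty. The summed fibroblast markers of stromal libraries were likewise 18271 to 48295 CPM in adults and 79081 to 110051 CPM in puberty, and their part in these differences was not tested.

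Within luminal cells, Gpx3 was highest at proestrus, the observation for which it was chosen. It was 5441 and 3878 CPM in the proestrus libraries, 1340 and 919 CPM at estrus, 906 and 1133 CPM at metestrus, and 571 and 1088 CPM at diestrus. Both proestrus libraries lay above all others, and the proestrus minus other stages difference was 2.23 on the log2 scale. By CPM, Gpx3 ranked 6 and 8 among all genes at proestrus and 40 to 184 in the other adult luminal libraries, and it made up 0.632 and 0.456% of all counts at proestrus and 0.0683 to 0.164% in the others. The coefficient of variation of luminal Gpx3 over adult libraries was 92.3%, and 26.3% over the 6 libraries of the other stages. Gpx1 and Gpx4 varied by 12.3 and 11.6% over the same 8 libraries. At proestrus the other members measured 242 and 285 CPM (Gpx1), 256 and 321 CPM (Gpx4), 0.395 and 0.257 CPM (Gpx2), 0.351 and 0.257 CPM (Gpx7) and 2.89 and 4.28 CPM (Gpx8) in luminal libraries, and in proestrus replicate 1 Gpx1, Gpx4 and Gpx8 were the lowest of the 8 libraries. Replicate 1 of pubertal luminal cells, at 1088 CPM of Gpx3, lay in the range of the adult stages other than proestrus, and replicate 2, at 3383 CPM, between them and the proestrus libraries.

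**Figure D4:**
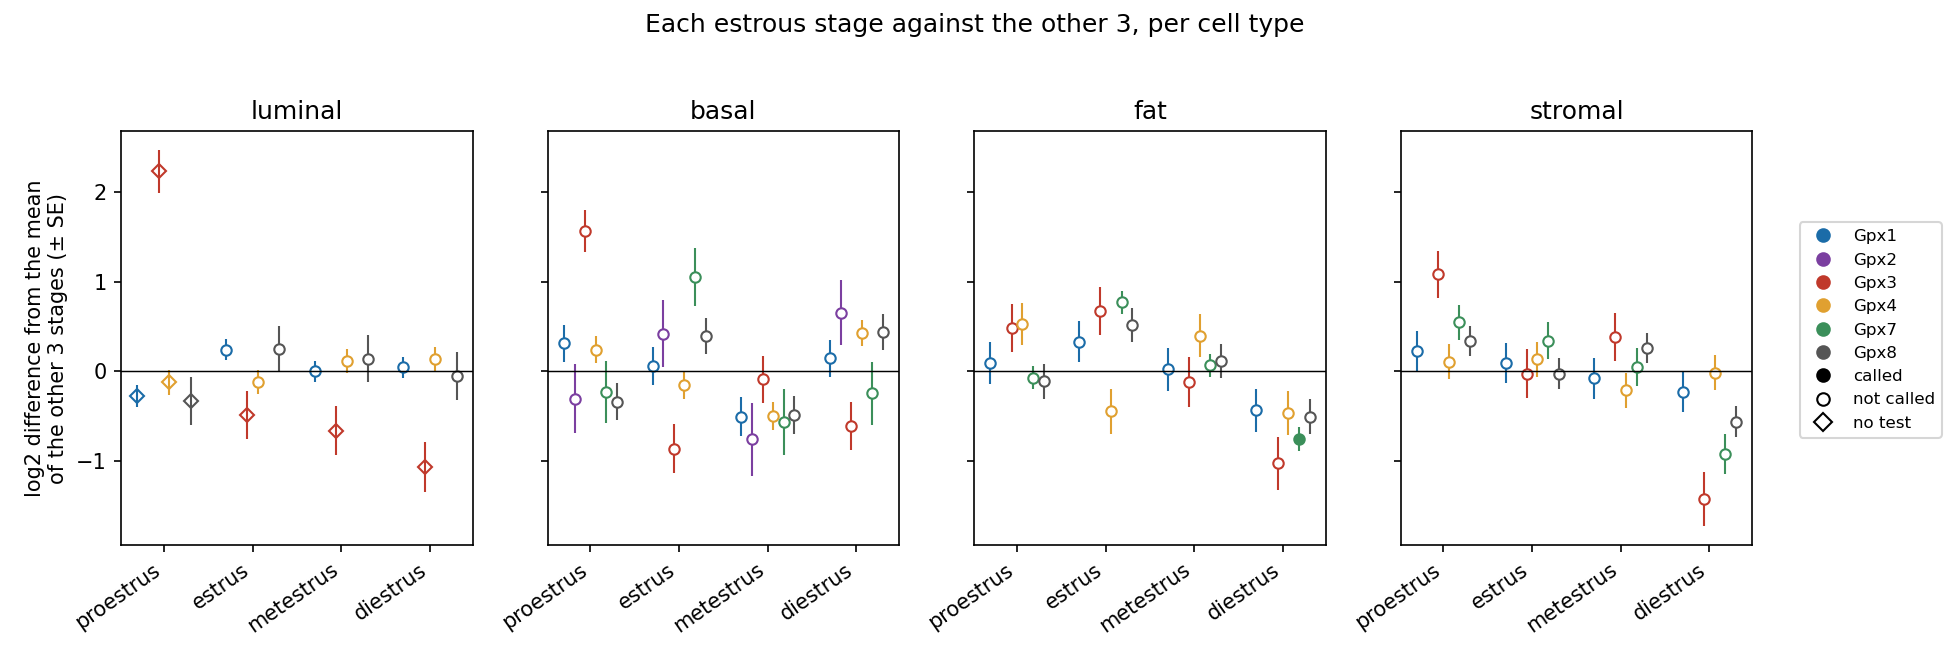
Log2 difference of each adult stage from the mean of the other 3 stages, with SE bars, for the members past the filter in each cell type, stages in cycle order (filled, adjusted p under 0.05; open, not; diamonds, no test). Gpx3 is highest at proestrus in luminal (2.23), basal (1.57) and stromal cells (1.08), and the filled point is Gpx7 in fat at diestrus (-0.76).

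The stage values of Gpx3 in basal, fat and stromal cells did not enter the choice of the gene, and none of their stage differences passed with edgeR. In basal cells it was 8.24 and 8.07 CPM at proestrus, 2.80 and 1.63 CPM at estrus, 2.93 and 3.49 CPM at metestrus, and 2.79 and 2.30 CPM at diestrus. Both proestrus libraries were above the others, by 1.57 ± 0.23 on the log2 scale, but the difference did not pass (edgeR adjusted p = 0.163; 0.00825% of all genes passed in this comparison). It did pass with DESeq2 (adjusted p = 0.000617), in one fit over all adult cell types (0.0424) and with no filter on low counts (8.8e-08). In the other 11 of 14 alternatives it did not pass, and the log2 difference was 1.45 to 1.72 over all 14. Shares of all genes under these settings are not given here. The basal level of Gpx3 was 0.152 and 0.208% of the luminal level of the same pool at proestrus and 0.177 to 0.489% at the other stages, while Krt18, a luminal marker, was 3.50 to 5.49% over all stages, and the summed luminal markers of the basal libraries were 1740 and 2121 CPM at proestrus and 1566 to 2077 CPM at the other stages. The part of luminal RNA in the basal values was not tested further.

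In stromal cells Gpx3 was 984 and 519 CPM at proestrus, 504 and 381 CPM at estrus, 597 and 423 CPM at metestrus, and 176 and 217 CPM at diestrus. Both diestrus libraries were the lowest, by -1.43 ± 0.30 on the log2 scale, and did not pass (edgeR adjusted p = 0.188), whereas they passed with DESeq2 (3.9e-05) and in the fit over all adult cell types (0.0171). They also passed with no filter on low counts, and did not in the other 11 of 14 alternatives. The proestrus difference, 1.08 ± 0.26, had adjusted p = 0.639 with edgeR and 0.0286 with DESeq2. In fat Gpx3 was 772 and 1231 CPM at proestrus, 1241 and 809 CPM at estrus, 746 and 657 CPM at metestrus, and 541 and 344 CPM at diestrus. Diestrus was again lowest in both libraries, by -1.03 ± 0.30 (adjusted p = 0.0678 with edgeR and 0.00468 with DESeq2), and passed with edgeR without fat diestrus replicate 1 (-1.29, adjusted p = 0.0447). The fat diestrus libraries carried the luminal and basal marker sums given above, replicate 2 with the lowest adipocyte sum, and the part of other cells in the difference was not tested.

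Over all members, 73 stage comparisons were tested, and only 1 passed, Gpx7 in fat at diestrus. It was 5.93 and 6.31 CPM at diestrus, against 9.04 and 8.89 CPM at proestrus, 13.4 and 12.3 CPM at estrus, and 8.98 and 9.50 CPM at metestrus. Both diestrus libraries were below all others and both estrus libraries above all others. Diestrus minus the other stages was -0.76 ± 0.14 on the log2 scale (adjusted p = 0.0306, edgeR), in a comparison in which 11% of 13726 genes passed, 7.53% higher and 3.52% lower (0% at the other stages of fat). It did not pass when any 1 of the 8 fat libraries was left out (-0.77 to -0.60, adjusted p 0.0578 to 0.0957), nor with the replicate block (adjusted p = 0.0837). The fat diestrus libraries also carried the marker sums given above, and their part in this difference was not tested. Fat Gpx7 at estrus, 0.77 ± 0.12, had adjusted p = 0.218 with edgeR and 0.0112 with DESeq2.

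In luminal cells Gpx3 was not tested between stages, and Gpx2 and Gpx7 were below the filter. Gpx1, Gpx4 and Gpx8 did not pass there at estrus, metestrus or diestrus (0 of 9 tests with edgeR). Of these tests 0 had an unadjusted p under 0.05 and 0 passed with DESeq2, and 0% of all genes passed with edgeR at these stages. No member passed in basal cells (0 of 24 with edgeR, 8 at an unadjusted p under 0.05, 2 with DESeq2). Of all genes 0.00825, 1.21, 0 and 0% passed with edgeR from proestrus to diestrus, at estrus 1.2% higher. Under an unadjusted p of 0.05 were 8.48, 11.8, 24.7 and 8.13% of all genes. In stromal cells 0 of 20 passed with edgeR, 5 were under 0.05 unadjusted and 3 passed with DESeq2. Of all genes 0% passed with edgeR at any stage there, and 7.5, 20.8, 17.4 and 17.9% were under 0.05 unadjusted from proestrus to diestrus. Shares of all genes with DESeq2 are not given here. Beside Gpx3, stromal Gpx7 was lowest at diestrus, at 19.5 and 15.1 CPM, against 41.8 and 35.2 CPM at proestrus, 41.0 and 31.7 CPM at estrus, and 33.3 and 24.8 CPM at metestrus (-0.93 ± 0.22 on the log2 scale, adjusted p = 0.192 with edgeR and 0.011 with DESeq2). Stromal Gpx8 was 52.9 and 46.7 CPM at diestrus and 66.6 to 93.6 CPM at the other stages (-0.56 ± 0.17, adjusted p = 0.210, edgeR). The summed fibroblast markers of those 2 stromal libraries, 29184 and 18271 CPM, were also below the 32176 to 48295 CPM of the others, and their part in these values was not tested. In basal cells Gpx4 was 228 and 169 CPM at metestrus and 235 to 349 CPM at the other stages (-0.50 ± 0.16, adjusted p = 0.112 with edgeR and 0.0419 with DESeq2).

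Whether a stage acted unequally on the 4 cell types was asked directly, for the members other than Gpx3, with an F-test across cell types for estrus, metestrus and diestrus. The proestrus test is not given, since luminal proestrus entered the choice of the members. Of 15 such tests 0 passed with edgeR, 7 had an unadjusted p under 0.05, and 1 passed with DESeq2. With edgeR the background was 0.119% of 15077 genes at estrus, 0.00663% at metestrus and 8.23% at diestrus. At an unadjusted p under 0.05 it was 18.2, 16 and 25% of all genes at these stages. No share of all genes is given here for DESeq2. The DESeq2 call was Gpx8 at diestrus (adjusted p = 0.0187, and 0.0783 with edgeR, 0.0384 without luminal metestrus replicate 2). Gpx4 and Gpx7 at diestrus passed with edgeR without fat diestrus replicate 1 (adjusted p = 0.0397) and without basal estrus replicate 1 (0.0425). Gpx8 at diestrus was above the mean of the other stages in basal cells (0.44 ± 0.20) and below it in fat (-0.51 ± 0.20) and stromal cells (-0.56 ± 0.17), none of which passed alone.

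Other genes of the pathway, from lists chosen with earlier results of these data known, were counted in the same adult comparisons, for every list in luminal minus basal (35.3% of all genes higher, 38.3% lower) and in fat minus stromal (39.2% higher, 39.1% lower). Of 9 genes of the Nrf2 axis, which controls glutathione synthesis and thioredoxin reduction and shares genes with the glutathione list, all 9 were lower in luminal than in basal cells (median log2 difference -1.72, against -0.04 over all genes), and 1 was higher and 8 were lower in fat than in stromal cells (median -1.77, against 0.02). Against stromal, 1 was higher and 6 were lower in luminal cells (40.9% of all genes higher, 40.2% lower). In basal cells 6 were higher than in stromal cells (39.5% of all genes higher, 37.5% lower), and the number lower is not given here. Gclm, the modifier subunit of the enzyme that starts glutathione synthesis, averaged 159 ± 21.5 CPM in luminal, 537 ± 87.7 CPM in basal, 76.8 ± 27.4 CPM in fat and 167 ± 42.0 CPM in stromal libraries (SD, n = 8 each). Txnrd1, the cytosolic thioredoxin reductase, averaged 502 ± 51.3 CPM in luminal and 1654 ± 164 CPM in basal libraries, a log2 difference of -1.72 ± 0.12 (adjusted p = 3.3e-11, edgeR). Both were highest in the cell type with the least Gpx3, whereas genes of the whole glutathione list passed in both directions, as given below.

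Of 8 genes of oxidative folding in the endoplasmic reticulum, where Gpx7 and Gpx8 act, 3 were higher and 2 lower in luminal than in basal cells (median log2 difference 0.03), and all 8 were lower in fat than in stromal cells (median -1.45, against 0.02 over all genes). P4hb, a protein disulfide isomerase, averaged 751 ± 162 CPM in luminal, 761 ± 102 CPM in basal, 301 ± 32.0 CPM in fat and 1228 ± 176 CPM in stromal libraries. Its luminal minus basal difference, -0.04 ± 0.08 on the log2 scale, did not pass (adjusted p = 0.708, edgeR), where those of Gpx7 and Gpx8 were -5.12 and -1.96. Prdx4, the peroxiredoxin of the same compartment, averaged 54.5 ± 9.36 CPM in luminal and 42.5 ± 16.7 CPM in basal libraries.

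In the remaining lists genes passed in both directions. Of 15 genes of glutathione synthesis and recycling, 6 were higher and 6 lower in luminal than in basal cells, and 7 higher and 6 lower in fat than in stromal cells. Ggt1, which breaks down extracellular glutathione, averaged 80.0 ± 52.5 CPM in luminal and 85.5 ± 29.6 CPM in basal libraries, and at most 5.41 CPM in any adult fat or stromal library, whereas its relative Ggt5 averaged 152 ± 48.6 CPM in stromal libraries. Of 16 other antioxidant enzymes, 6 were higher and 9 lower in luminal than in basal cells, and 8 higher and 5 lower in fat than in stromal cells. Cat, the catalase, averaged 590 ± 143 CPM in fat and 44.7 ± 6.52 CPM in stromal libraries, and Sod3, the secreted superoxide dismutase, averaged 149 ± 38.0 CPM in fat and 222 ± 71.8 CPM in stromal libraries, and was under 1 CPM in every adult epithelial library. Of 12 genes of selenoprotein synthesis and selenium supply, 5 were higher and 4 lower in luminal than in basal cells, and 6 higher and 3 lower in fat than in stromal cells. Selenop, the plasma carrier of selenium, averaged 85.6 ± 18.1 CPM in luminal, 65.6 ± 8.35 CPM in basal, 779 ± 153 CPM in fat and 1039 ± 286 CPM in stromal libraries, and Lrp8, a receptor for it, 92.1 ± 18.5 CPM in basal libraries and under 13 CPM in every other adult library. Of 16 tested genes among other selenoproteins, 5 were higher and 9 lower in luminal than in basal cells, and 6 higher and 10 lower in fat than in stromal cells. Selenom averaged 1.18 ± 0.395 CPM in luminal, 32.6 ± 11.5 CPM in fat and 55.4 ± 17.2 CPM in stromal libraries. Of 12 genes of ferroptosis and lipid peroxides, 1 was higher and 8 were lower in luminal than in basal cells, and 5 were higher and 5 lower in fat than in stromal cells. Aifm2, which suppresses ferroptosis independently of Gpx4, averaged 149 ± 53.2 CPM in fat and 9.80 ± 1.91 CPM in stromal libraries, a difference of 3.87 ± 0.12 on the log2 scale.

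In the stage comparisons, the listed genes that passed were mostly in fat at diestrus, where 11% of all genes passed. Idh1 (-0.67), Idh2 (-0.79), Ggt5 (-0.82), Prdx5 (-0.57), Selenop (-0.68) and Selenow (-0.61) were lower, and Slc3a2 (0.82), Chac1 (1.08), Lrp8 (2.42), Secisbp2l (0.88) and Gch1 (0.67) higher on the log2 scale, adjusted p between 0.0217 and 0.0489 (edgeR). The marker sums of the fat diestrus libraries given above moved with these genes, Lrp8 averaged most in basal libraries, and the calls over all genes in this comparison numbered 1516, and 2 with the replicate block. The part of other cells in these values was not tested. Selenoh was higher in basal cells at estrus by 1.83 ± 0.30 (adjusted p = 0.0179), a comparison in which 1.21% of genes passed. In luminal cells at proestrus Ggt1 was higher by 1.62 and Alox12 by 1.67 on the log2 scale, values given with no test.

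The genes whose log2(CPM + 1) over the 32 adult libraries most resembled each member were named by Pearson's r among 8970 genes with a mean of at least 10 CPM. These are descriptions over libraries that share cell type, pool and run, and no p is attached. For Gpx3 they were Galnt15 (0.968), Lasp1 (0.965), Unc93b1 (0.964), Stat5b (0.962) and Sh2d4a (0.961), all lowest in basal cells. For Gpx7 they were Serpinf1 (0.984), Emp3 and Fbln5 (both 0.983), and for Gpx8 they were Mgp (0.983), P3h3 (0.978) and Cyp7b1 (0.971). Gpx4 was nearest to Cox7c (0.965), Ndufb5 (0.963) and Cox7b (0.957), which encode subunits of the mitochondrial respiratory chain, Gpx1 to Fam173a (0.937), Tmem205 (0.923) and Mgst3 (0.917), and Gpx2 to Lama1 (0.957), Krt42 (0.952) and Cotl1 (0.951). Within the family, Gpx7 and Gpx8 had r = 0.940 over the 32 libraries, and -0.081, 0.712, 0.867 and 0.902 over the 8 luminal, basal, fat and stromal libraries alone.

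Over the 8 adult luminal libraries alone, the genes nearest to Gpx3 were Ndrg1 (0.986), Tmem176a (0.982), Syn2 (0.979), Slc44a4 (0.973) and Cdon (0.972). The spread of luminal Gpx3 came mostly from the 2 proestrus libraries, so this choice favoured genes that were high there, and their stage values are a description. Syn2 was 141 and 68.6 CPM at proestrus and 5.15 to 20.5 CPM at the other stages, and Slc44a4 was 69.4 and 55.0 CPM at proestrus and 18.8 to 30.3 CPM at the others. Ndrg1 differed less, at 630 and 633 CPM at proestrus and 425 to 487 CPM at the others. Across cell types none of the 5 had the order of Gpx3: Ndrg1 and Cdon averaged most in stromal libraries (1735 and 104 CPM), Tmem176a least in fat libraries (19.3 CPM), and Syn2 and Slc44a4 least in stromal libraries (2.53 and 0.0386 CPM).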

How the data were processed

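RNA-seq was measured in 40 mammary libraries, 32 adult and 8 pubertal. The values are deposited read counts per gene, which the authors made with TopHat2 2.1 and Bowtie 1.1.0 on GRCm38 and HTSeq, from single-end 65 bp reads of a stranded polyA kit; the HTSeq version and strand setting are not given in the sources used here. All columns matched a sample (0 left unused). The deposited normalized tables were not used.

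Symbols came from GENCODE M21 (24739 of 25044 adult and 23989 of 24268 pubertal IDs). Members and lists were chosen with earlier results of these data known. CPM and RPKM used TMM factors shared by all 40 libraries. Tests were edgeR 4.0.16 quasi-likelihood F-tests (legacy=TRUE, R 4.3.3) after dropping genes that did not exceed 1 CPM in 2 or more of the libraries fitted, adjusted by Benjamini-Hochberg per comparison at 0.05. Each was run on simulated data first. SEs are the log2 difference divided by the root of F. Stages were fitted per cell type, each against the other 3. Gpx2 was below the filter in luminal, fat and stromal stage fits, as was Gpx7 in luminal. Alternatives were DESeq2 1.42.0, RLE scaling, no filter, the newer quasi-likelihood method, a joint fit, a replicate block, single stages and leaving out libraries.

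The 4 cell types of an adult pool came from the same mice, so the pool pairs them; deviations of same-numbered libraries correlated at -0.02 to 0.25 within stages. Pubertal libraries of one number also came from the same mice, except fat replicate 2, collected on another day (correlations 0.0622 to 0.23). Across adult stages the numbers stand for earlier and later sampling where that was clear, from different mice. Besides the 6 members, named genes were at most 4 with the smallest adjusted p in each list, listed genes past the threshold at a stage, and the genes with the highest r. Counting error alone sets the limit for 0 counts (3 counts of the total).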

Additional observations from a re-analysis of the deposited data

Results flagged for a closer look

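Each member was examined for a library far from the others among the 8 adult libraries of each cell type, 24 sets in all, and 2 sets held one (chance gives about 1 in 20). Gpx2 in luminal estrus replicate 1 was 0.826 CPM, with 0.395 CPM in the nearest library, and rested on 23 counts. Gpx7 in basal estrus replicate 1 was 12.2 CPM, with 5.05 CPM in the nearest library, and rested on 204 counts. The basal estrus difference of Gpx7, 1.05 on the log2 scale (adjusted p = 0.238, edgeR), was 1.60 with adjusted p = 0.0346 without basal estrus replicate 2.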

How the results depend on the processing

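Of 81 member comparisons that passed under at least 1 setting, 35 kept their call and direction under every alternative run, and 46 changed a call under at least 1. The adult cell type count of 32 passing comparisons was 31 to 32 when 1 library was left out, 31 with the pool as replicate block, 31 with RLE scaling and with DESeq2, 32 with no filter and 30 without both luminal proestrus libraries, and it was 23, 25, 27 and 25 within proestrus, estrus, metestrus and diestrus, where 2 libraries of each cell type remain. The within-proestrus count includes pairs with the luminal proestrus libraries, which entered the choice of the family, and is a description only. The block ended the call of Gpx4 in basal minus stromal and changed no other adult call. The pubertal count of 24 was 18 to 33 when 1 library was left out, 25 with the replicate block (which changed only the Gpx4 basal minus fat call) and 28 with DESeq2. The stage count of 1 was 9 with no filter on low counts, 8 with DESeq2, 5 in the fit over all adult cell types, 0 with the replicate block (across stages the numbers stand for earlier and later sampling in different mice, with correlations of -0.728 to 0.449) and 0 to 2 when 1 library was left out. The count of unequal stage effects, 0, was 1 with no filter, 1 with DESeq2, 0 with the replicate block and 0 to 1 when 1 library was left out. Shares of all genes under these settings and within single stages are not given here. Calls over all genes moved with the settings as well, as given below for fat diestrus and luminal proestrus. The causes of these shifts were not tested.

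The differences that turned direction were Gpx8 basal minus fat within metestrus (-0.21), Gpx4 basal minus stromal within estrus (-0.025), Gpx4 luminal minus basal within proestrus (-0.11) and diestrus (-0.019), Gpx2 luminal minus stromal within metestrus (-0.21) and diestrus (-0.37), and pubertal Gpx4 luminal minus fat without luminal puberty replicate 2 (-0.42 to 1.01 over the libraries left out). With RLE scaling the median of all genes moved by -0.13 in adult basal minus fat and -0.11 in adult basal minus stromal. Over all genes, calls in fat diestrus were 1516, and 2 with the replicate block, 3151 with DESeq2 and 3349 in the fit over all adult cell types, and calls in luminal proestrus were 58, and 859 with no filter and 295 with DESeq2. Depth limited Gpx2 in luminal, fat and stromal libraries (66, 12 and 16 adult counts in all) and Gpx7 in luminal libraries (42).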
